A study of Mus musculus with 46 samples.

Results

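Mouse brain tissue kept in the cold was followed over 8 storage times, and late storage was compared with early storage. The 8 arrays were chosen by their labels, brain and 4 °C, out of 46 arrays in the series. The early group held 0, 1 and 3 h of storage, the late group held 24, 48 and 96 h, and the arrays of 6 and 12 h were left out of the test and are shown between the groups. The study stored mouse heart, liver and brain at 4 °C or at room temperature (RT) after death and measured microRNAs (miRNAs) on 1-colour arrays, to learn how storage and RNA degradation move miRNA profiles. All 8 samples came from the brain of 1 male mouse of a C57BL6 Il1a knock-out strain, which had been cut into 8 similar pieces, so that every storage time was another part of the same brain. No sample was treated, and no time point had a second animal on the arrays. The p-values given here therefore rest on the spread between parts of 1 brain within the early and late groups, and not the spread between animals. Each group pooled 3 storage times, so that this spread also holds any change between those times. Storage time and the region a part came from cannot be told apart.

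MiRNAs are short single-stranded RNAs that are cut from a hairpin precursor and guide Argonaute proteins to messenger RNAs, mostly through the bases near their 5′ end called the seed. One arm of the hairpin is usually kept as the guide strand and the other, the passenger strand, is mostly lost. The brain holds large amounts of a few miRNAs such as miR-124 and miR-9 of neurons and miR-219 and miR-338 of oligodendrocytes. RNA integrity is commonly scored on the ribosomal RNA as the RIN value, in which a lower value means more broken RNA.

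The miRNAs on which the comparison turned are shown first, because their base composition is referred to with the results. The sequences are the mature miRNAs of RefSeq, read 5′ to 3′, and capitals mark the seed, bases 2 to 8. The first 8 had the largest increases for which the table held a sequence, except miR-721, and the last 2 were the miRNAs that fell. MiR-1897-5p also rose.
miR-804: uGUGAGUUguuccucaccugga
miR-134-5p: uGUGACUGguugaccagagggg
miR-344i: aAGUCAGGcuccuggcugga
miR-3473f: cAAAUAGGacuggagagaug
miR-3473e: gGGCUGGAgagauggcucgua
miR-5128: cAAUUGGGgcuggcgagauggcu
miR-5118: aAGGUUAGgccagccuggu
miR-6538: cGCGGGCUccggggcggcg
miR-652-5p: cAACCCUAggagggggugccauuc
miR-3968: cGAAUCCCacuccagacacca

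No seed was shared between any of the called miRNAs with a sequence. In the GRCm38.p6 build, miR-804 lies at chr11:50357799-50357820 on the minus strand, miR-134-5p at chr12:109734145-109734166 on the plus strand and miR-344i at chr7:62085281-62085300 on the minus strand.

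The RIN values of the 8 parts were 8.7, 8.7 and 8.4 at 0, 1 and 3 h, 8.5 and 8.7 at 6 and 12 h, and 8.5, 8.0 and 7.3 at 24, 48 and 96 h. The early and late RIN values overlapped, and the mean of 7.93 ± 0.603 (SD, n = 3) late did not differ detectably from 8.60 ± 0.173 early (exact permutation test, two-sided p = 0.2, the smallest possible being 0.1). The number of detected miRNAs was 515, 536 and 574 early and 550, 579 and 575 late, which also overlapped (exact permutation p = 0.2, n = 3 per group). The summed signal of detected miRNAs did not overlap, with 354473, 361355 and 504440 units early and 334948, 349298 and 325048 late (exact permutation p = 0.1, which is the smallest that 3 against 3 can give). The median error of a detected miRNA's total signal was 8.70% to 9.02% of that signal, and no miRNA spot was saturated.

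The brain label held on its markers. The neuronal miRNAs miR-124-3p, miR-9-5p and miR-128-3p and the oligodendrocyte miRNAs miR-338-3p and miR-219a-2-3p were detected on 8 of 8 arrays. Other miRNAs of the oligodendrocyte list, miR-219a-1-3p, miR-219b-5p and miR-219c-5p, were detected on 0 of 8. Likewise, miR-208a-3p, miR-208b-3p and miR-499-5p of heart muscle were detected on 0 of 8. The other 6 markers of heart, muscle and liver, miR-1a-3p, miR-133a-3p, miR-133b-3p, miR-122-5p, miR-192-5p and miR-194-5p, were detected on 8 of 8. Of these, miR-122-5p of liver was at 4.86 (log2) on the 3 h array and at 2.10 to 3.42 on the other 7. The summed signal of the markers of heart, muscle and liver was 0.0309% to 0.0512% of all detected signal. One array stood apart before any comparison: on the 3 h array the miRNAs of choroid plexus and ciliated cells, a list that includes the epithelial miR-200 family, took 2.18% of the signal, against 0.124% to 0.573% on the other 7. The level of miR-200a-3p, an epithelial miRNA, was 2.58, 4.78 and 11.83 (log2) at 0, 1 and 3 h, 4.48 and 4.38 at 6 and 12 h, and 8.34, 4.18 and 4.14 at 24, 48 and 96 h. The 3 h part, and less so the 24 h part, thus held far more of it than the other 6. MiR-200b-3p, miR-200c-3p, miR-141-3p and miR-429-3p of the list were raised on the same arrays. They were at 0.06 to 2.82 at 0 h, at 8.67 to 11.08 at 3 h and at 5.32 to 7.84 at 24 h. The remaining members, of choroid plexus and ciliated cells, were not raised alike. At 3 h choroid miR-204-5p and miR-211-5p were at 9.59 and 3.62, against 9.93 and 3.69 at 0 h. MiR-34b-5p and miR-34c-5p of ciliated cells were at 6.50 and 5.70, against 7.56 and 6.95. MiR-449a-5p was higher, at 3.32 against 2.45. Which region of the brain each part came from was not given in the sources used here. The lowest correlation between any arrays, r = 0.899 over the tested miRNAs, was between 3 and 96 h.

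Of 1881 miRNAs on the array, 574 were detected on at least 3 of the 8 arrays and were tested, and 1218 were detected on none. With storage in the cold, 27 of the 574 changed (4.7%), of which 25 rose (4.36%) and 2 fell (0.348%), by limma with Benjamini-Hochberg adjusted p below 0.05. Without adjustment 105 had p below 0.05, of which 93 were higher and 12 lower. The differences of the 25 that rose ran from 1.03 to 4.73 (log2), with a median of 1.84, and their median level went from 3.85 early to 6.14 late. Most miRNAs moved slightly the other way: the median difference of all 574 was -0.21, with 370 lower and 204 higher late. That median rested in part on the 96 h array, being -0.08 without it (235 higher) and -0.05 without the 3 and 96 h arrays (251 higher). The count depended on single arrays, with 10 calls without the 0 h array, 11 without 1 h, 12 without 48 h and 14 without 96 h, against 26 without 3 h and 33 without 24 h. Every one of the 25 kept a positive difference, and both that fell a negative one, under each setting tried in which they were tested. The sign could change only under other scalings, background correction or the time trend. Other filters and tests reused the same difference. Leaving out arrays could not turn it either, because the groups did not overlap.

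**Figure D1:**
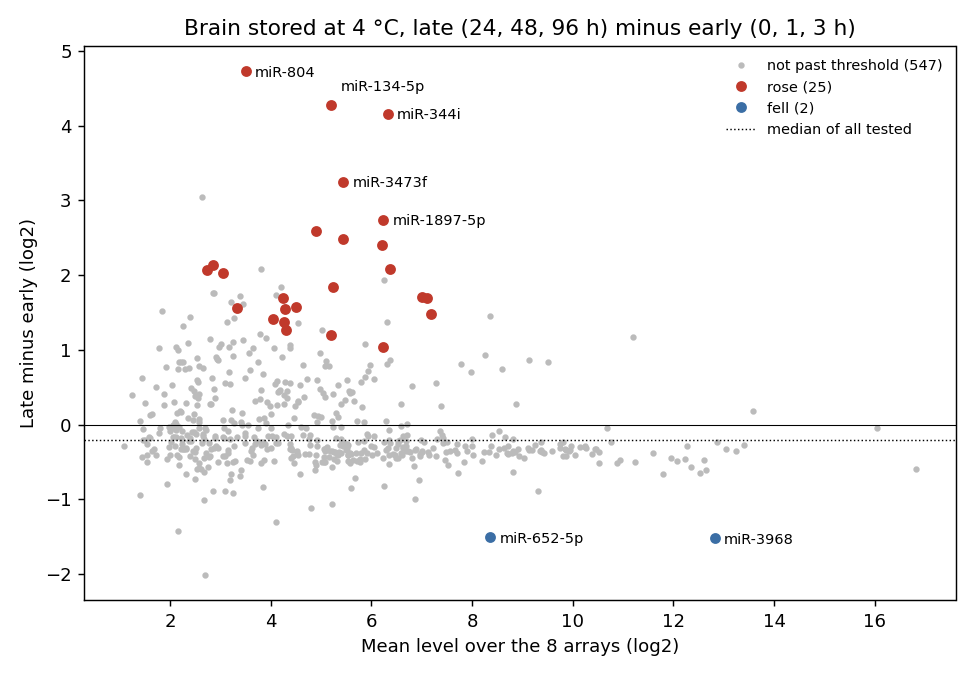
Each point is 1 of the 574 tested miRNAs, with its mean level over the 8 cold brain arrays (log2) on the x axis and its late minus early difference (log2) on the y axis. Red points rose and blue points fell past the adjusted p of 0.05, and the dotted line is the median of all tested at -0.21; the called increases lie between mean levels of 2.73 and 7.19, and both decreases lie above 8.

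The largest increase was that of miR-804. Its level was 1.35, 1.09 and 1.78 (log2) early, 1.40 at 6 h and 4.04 at 12 h, and 4.78, 6.60 and 7.02 late. It was called not detected at 0, 1, 3 and 6 h and detected on the 4 later arrays. Its late mean was 25.5-fold above a floor set for the early arrays (measured difference 4.73 ± 0.55, SE, limma adjusted p = 0.00434). MiR-804 entered the test only through those 4 arrays. The measured difference was 5.40 without the 24 h array and 1.55 after normexp background correction. The normexp step added an offset of 50, which narrows differences at such low signals. The floor was, on each early array, the lowest signal among detected miRNAs or the miRNA's own signal, whichever was higher. It is not the detection limit of miR-804 itself, so that the fold is no strict minimum.

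MiR-134-5p, a miRNA of neurons known for its part in limiting the size of dendritic spines, had levels of 3.25, 3.22 and 3.41 early, 3.80 and 5.26 at 6 and 12 h, and 6.48, 7.57 and 8.66 late. The early arrays lay within 0.2 of each other and every later array was higher than the one before it. The difference was 4.27 ± 0.49 (19.4-fold, limma adjusted p = 0.00434). MiR-134 is 1 of many miRNAs of the imprinted Dlk1-Dio3 region, and its neighbours did not share the increase. Within 300 kb of miR-134, between positions 109544588 and 109747949 of chromosome 12, 56 other mature miRNAs were tested and none passed the threshold. They differed by -0.59 to 0.71, with a median of -0.28, 51 of them lower and 5 higher. The distance was chosen after the values were seen. The other arm of its own hairpin, miR-134-3p, was detected on 0 of 8 arrays.

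MiR-344i, named as a member of the miR-344 family, had levels of 4.03, 4.09 and 4.96 early, 4.90 and 7.07 at 6 and 12 h, and 7.76, 8.50 and 9.29 late, a difference of 4.16 ± 0.43 (17.8-fold, limma adjusted p = 0.00378). Early and late arrays were more than 2.5 apart. The other 4 tested members of the family, of 17 on the array, had differences between -0.43 and -0.03 and did not pass the threshold.

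MiR-3473f was at 3.77, 3.80 and 3.98 early, 4.68 and 6.00 at 6 and 12 h, and 6.57, 6.91 and 7.81 late (3.25 ± 0.33, 9.51-fold, limma adjusted p = 0.00378). Its relative miR-3473e was at 3.63, 4.03 and 4.52 early, 5.77 and 5.90 between, and 6.46, 6.06 and 7.10 late (2.48 ± 0.34, limma adjusted p = 0.00960). Both were therefore already above all early arrays at 6 h. Of 6 tested members of the miR-3473 family these 2 rose. MiR-3473a and miR-3473b had differences of 1.45 ± 0.44 and 1.17 ± 0.51 with limma adjusted p of 0.128 and 0.280, and miR-3473c and miR-3473g had differences of -0.20 and -0.34.

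MiR-1897-5p was at 4.73, 4.80 and 5.16 early, 5.37 and 6.95 at 6 and 12 h, and 7.71, 8.21 and 6.99 late (2.74 ± 0.33, limma adjusted p = 0.00460). It was highest at 48 h and lower again at 96 h. MiR-6538 was also highest at 48 h, at 5.31, 5.46 and 5.45 early, 5.52 and 6.76 between, and 7.28, 8.10 and 7.08 late (2.08 ± 0.29, limma adjusted p = 0.00960). MiR-721 likewise peaked at 48 h, with 2.71, 3.54 and 4.39 early, 4.75 and 5.38 between, and 5.52, 7.06 and 5.84 late (2.60 ± 0.52, limma adjusted p = 0.0374). In contrast with the steady early values of miR-6538, those of miR-721 already differed by more than 1.5 between 0 and 3 h.

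The remaining 4 of the 12 largest increases were those of miR-5128, miR-5118, miR-3547-5p and miR-7687-5p. MiR-5128 was at 4.11, 4.77 and 5.49 early and 7.40, 6.79 and 7.36 late (2.40 ± 0.37), and it had reached 6.67 by 6 h. MiR-5118 was at 1.03, 1.59 and 2.22 early and 3.56, 3.30 and 4.38 late (2.13 ± 0.39). MiR-3547-5p was at 1.79, 2.03 and 2.27 early and 3.51, 4.49 and 4.15 late (2.02 ± 0.30). All of their late arrays were above their early ones, with limma adjusted p of 0.0129, 0.0233 and 0.00976. MiR-7687-5p was at 0.73, 1.71 and 2.28 early and 3.17, 3.78 and 4.00 late, and was detected on none of the early arrays. Its late mean was 3.62-fold above the same kind of floor, again no strict minimum (measured difference 2.07 ± 0.42, limma adjusted p = 0.0374). MiR-7687-5p, too, passed the detection filter only through later arrays.

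**Figure D2:**
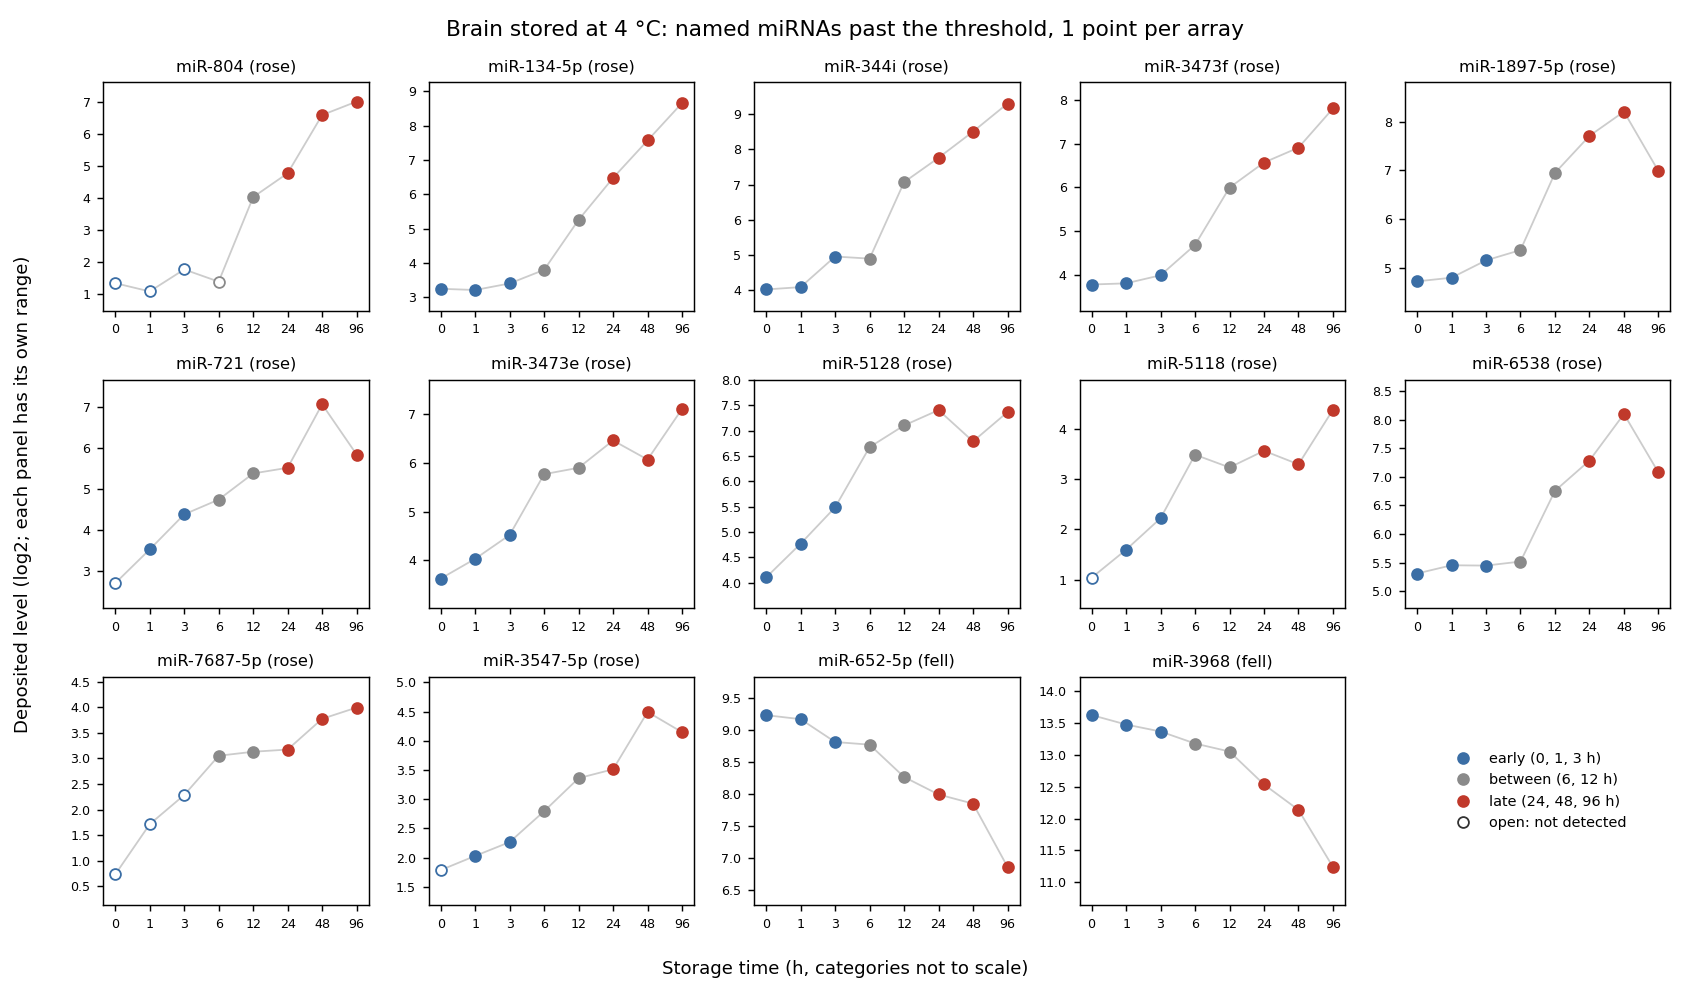
Each panel shows 1 miRNA past the threshold, with the storage time of the array on the x axis (hours, in categories) and its deposited level (log2) on the y axis; blue, grey and red points are the early, 6 and 12 h, and late arrays, and open points were not called detected. Late points lie above all early points in the 12 panels of miRNAs that rose and below them in the 2 that fell, and miR-804 is open until 6 h.

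The other 13 miRNAs that rose had differences from 1.03 for miR-6931-5p to 1.84 for miR-125a-3p. Among them were miR-1198-5p (1.71), miR-8101 (1.69), miR-290a-5p (1.69), which belongs to the cluster best known from embryonic stem cells, and miR-7226-5p (1.58). None of the 25 had early and late arrays that overlapped. For comparison, 96 of the 574 tested (16.7%) had all late arrays above all early ones and 75 (13.1%) had all below. In all, 12 of the 25 were highest at 96 h, 12 at 48 h and 1 at 24 h. Of the 69 probes that measured the 27 called miRNAs, 68 moved in the direction of the call. The remaining probe, of miR-3547-5p, had signals near 0 after background subtraction in both groups and gives no direction. The calls rest on the signals of these same probes, so that their direction is a description and no separate evidence.

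MiR-652-5p and miR-3968 fell. MiR-652-5p was at 9.23, 9.17 and 8.81 early, 8.77 and 8.26 at 6 and 12 h, and 7.99, 7.85 and 6.85 late, a difference of -1.51 ± 0.33 (2.84-fold lower, limma adjusted p = 0.0455). MiR-3968 was at 13.63, 13.48 and 13.37 early, 13.18 and 13.05 between, and 12.54, 12.14 and 11.24 late, a difference of -1.52 ± 0.34 (2.87-fold lower, limma adjusted p = 0.0455). In both, each array was lower than every array of a shorter storage time, and 96 h was the lowest. Neither passed the threshold under 75th percentile scaling, quantile normalization, no scaling, Bonferroni adjustment or the wider detection filters, or without any 1 of the 0, 1, 3, 48 or 96 h arrays. The other arm of the miR-652 hairpin, miR-652-3p, differed by -0.18 ± 0.26 and did not pass (limma adjusted p = 0.631).

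With only 2 past the threshold, the next miRNAs lower in the late group by the smallest p are given as values that did not pass. MiR-6412 was at 7.36, 7.23 and 7.35 early and 6.71, 6.62 and 5.63 late (limma adjusted p = 0.138). MiR-221-3p, a miRNA known from vessel cells and tumour growth, was at 9.22, 8.99 and 9.28 early and 8.76, 8.53 and 8.29 late (limma adjusted p = 0.166). MiR-6366, at 17.19, 17.11 and 16.95 early and 16.71, 16.56 and 16.20 late, had a limma adjusted p of 0.197. For miR-3535, miR-295-5p and miR-191-3p the differences were -0.67, -1.01 and -0.63 with limma adjusted p of 0.197, 0.197 and 0.237. In all 6 the groups did not overlap, which was a condition for naming them. Of the 574 tested, 75 (13.1%) had all late arrays below all early ones.

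The arrays of 6 and 12 h were not in the fit, though their detection calls counted in the filter. At 6 h, 20 of the 25 that rose were above all 3 early arrays, beside 131 of all 574 tested. At 12 h, 25 of 25 were, beside 146 of 574. The median miRNA had covered 36.7% of its change by 6 h and 70.7% by 12 h, and 7 of the 25 were past the midpoint between the group means at 6 h and 22 at 12 h. Of all 574, each in its own direction, 68.3% were past it at 6 h and 47.9% at 12 h. For the 2 that fell the medians were 20.2% and 41.2%. The RIN value at 12 h, 8.7, equalled that at 0 and 1 h. All early arrays and the 6 h array lay in the first row of the slide and the 12, 24, 48 and 96 h arrays in the second, so that row and late storage cannot be told apart in the early against late test. Within the first row alone, the 6 h array was above both the 0 h and the 1 h array in 25 of 25, by a median of 0.84 over their mean, and in 183 of all 574 (31.9%). The 3 h array, 1 of the early arrays of the test, was above both in 20 of the 25 and in 337 of the 574 (58.7%). Since the 25 were chosen partly for low values at 0, 1 and 3 h, other arrays tend to lie above these by selection. The shares of all 574 do not allow for that, and an effect of row was not tested.

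The miRNAs that rose were rich in G. Of the 25, 24 had a RefSeq sequence, and of the 574 tested, 491 had one. The median share of G was 45.8% against 28.0% over all tested, and that of G and C together 61.4% against 52.2%, while the median length was 22 bases in both. A run of GGG stood in 17 of the 24 (70.8%) against 185 of 491 (37.7%), and GGGG in 11 of 24 (45.8%) against 80 of 491 (16.3%), counted on the mature strand. Sequences with long runs are shown with every run of at least 3 G in capitals.
miR-134-5p: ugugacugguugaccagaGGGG
miR-721: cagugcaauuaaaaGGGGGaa
miR-3547-5p: guGGGaagaGGGGuGGGGcccGGGa
miR-290a-5p: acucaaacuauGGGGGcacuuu
miR-6931-5p: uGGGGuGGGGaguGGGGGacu

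G runs were not in all of them: miR-804, miR-344i and miR-3473f, of the 4 largest increases, held no GGG. Both miRNAs that fell differed in this from each other, miR-652-5p holding a run of 5 G and miR-3968 none.

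Some of them shared a stretch of sequence. Over all pairs of the 24, 5 pairs had at least 9 bases in common. MiR-344i and miR-1198-5p shared UCCUGGCUGG, which stood in 2 of the 491 tested miRNAs (0.407%), and miR-3473f and miR-3473e shared CUGGAGAGAUG, which stood in 3 (0.611%), the other being miR-3473b. They are shown with the shared bases in capitals.
miR-344i: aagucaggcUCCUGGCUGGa
miR-1198-5p: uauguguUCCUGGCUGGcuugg
miR-3473f: caaauaggaCUGGAGAGAUG
miR-3473e: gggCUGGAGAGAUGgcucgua

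The shared stretch of miR-3473e and miR-5128, GAGAUGGCU, stood in 4 tested miRNAs (0.815%). In the remaining pairs, miR-5119 with miR-5128 and miR-3547-5p with miR-6931-5p, the shared stretch itself held a run of GGGG. These stretches were looked for after the values were seen and are a description.

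Where another arm of the same hairpin was measured, it did not follow. RefSeq listed another mature miRNA from the hairpin of 14 of the 27, 16 in all, of which 11 were detected too rarely to be tested. The 5 tested differed by -0.34 to 0.23. MiR-125a-3p, the passenger strand, was at a difference of 1.84, while its guide strand miR-125a-5p, a relative of the worm miRNA lin-4, was at -0.34 ± 0.20 (limma adjusted p = 0.368). MiR-7687-3p was at -0.18 ± 0.20 beside the 2.07 of miR-7687-5p.

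By the numbers in their names, the miRNAs that rose were mostly of late registration, since miRBase numbers roughly in order of entry. Members of a family share its number, as miR-344i does, so that the number does not date each of them. Of the 25, 17 (68.0%) had a number of 3000 or higher, against 179 of the 574 tested (31.2%). A number under 1000 was carried by 6 (24.0%) against 368 (64.1%). The median difference was 0.38 over the 179 and -0.32 over the 368, beside -0.21 over all.

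The well-known miRNAs of brain cells moved little. Of the 20 neuronal miRNAs on the list, 1 rose (5%, beside 4.36% of all tested), miR-134-5p, and 19 did not pass and were lower. The median of the list was -0.40, and it was -0.22 without the 3 h array, -0.23 without 96 h, -0.12 without both and -0.06 after quantile normalization, where 6 of the 20 were higher. The difference was -0.28 ± 0.22 for miR-124-3p, -0.47 for miR-128-3p, -0.48 for miR-9-5p and -0.45 for miR-9-3p. The level of miR-124-3p was 13.45, 13.37 and 13.80 early and 13.11, 13.25 and 13.44 late, so that the groups overlapped. Of the 7 oligodendrocyte miRNAs, 4 were tested and none passed, with a median of -0.19, and miR-219a-5p and miR-338-3p were at -0.04 and -0.31. The summed signal of the oligodendrocyte list ranged from 0.510% to 0.867% early and from 0.645% to 1.15% late.

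None of the 9 tested miRNAs of choroid plexus and ciliated cells passed, with a median of -0.89. Choroid miR-204-5p was at 9.93, 10.11 and 9.59 early and 9.69, 9.28 and 7.99 late, and miR-34b-5p and miR-34c-5p of ciliated cells differed by -0.74 and -0.82. The median was -0.33 without the 3 h array, -0.27 without 96 h and 0.20 without both. The lists of blood cells (7 tested, among them miR-451a at -0.32), vessel wall (6, miR-126a-3p at -0.35), heart, muscle and liver (6, miR-1a-3p at -0.04) and stress and injury (4, miR-21a-5p at -0.28 and miR-34a-5p at 0.28) had no call. Their medians were -0.29, -0.30, -0.18 and -0.26. The blood cell median was -0.50 without the 0 h array and -0.14 without 3 h, and that of the vessel wall -0.20 without 3 h and -0.19 without 96 h. For stress and injury it was -0.16 without 3 h, -0.42 without 48 h and -0.09 without 96 h. For heart, muscle and liver it was -0.28 without 1 h, 0.25 without 3 h and -0.05 without 24 h. Without both the 3 and 96 h arrays the medians of blood cells, vessel wall, stress and injury, oligodendrocyte and heart, muscle and liver were -0.01, -0.06, 0.01, 0.20 and 0.12. The oligodendrocyte median was -0.36 without the 0 h array, -0.11 and -0.10 without 1 and 3 h, -0.46 without 48 h and 0.04 without 96 h.

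All 9 let-7 guide strands, which act in differentiation and growth control, were lower late on every array than on any early array, by 0.39 to 0.66 with a median of -0.55, but none passed. Of all 574 tested, 75 (13.1%) had all late arrays below all early ones. The 9 were all highest at 3 h and moved together, so that they are not 9 separate observations. The value was -0.61 for let-7a-5p, -0.65 for let-7c-5p, -0.56 for let-7f-5p and -0.66 for let-7b-5p (limma adjusted p 0.253 to 0.288). Their median was -0.13 after quantile normalization and -0.34 without the 3 h array. Of the let-7 passenger strands 7 were tested, with no call and a median of -0.41, which was -0.63 without the 0 h array, -0.27 without 3 h and -0.12 after normexp background correction. The 9 miRNAs often used as references, among them miR-26a-5p (-0.46) and miR-103-3p (-0.33), had no call and a median of -0.34, which was -0.20 without the 3 h array and -0.01 after quantile normalization.

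The last lists had been chosen on these same samples, and are no independent evidence of direction. Of 9 miRNAs linked to RNA integrity over the whole series, miR-3473f and miR-5128 rose and the other 7, with values from 0.01 to 2.09, did not pass. The median was 1.04, but 0.15 after normexp background correction, with 7 of 9 higher, and 0.65 without the 48 h array. The summed signal of this list was 0.0927% to 0.130% of all detected signal early and 0.232% to 0.431% late. Of the 3 linked to storage time, miR-804 rose, miR-652-5p fell and miR-6366 did not pass.

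**Figure D3:**
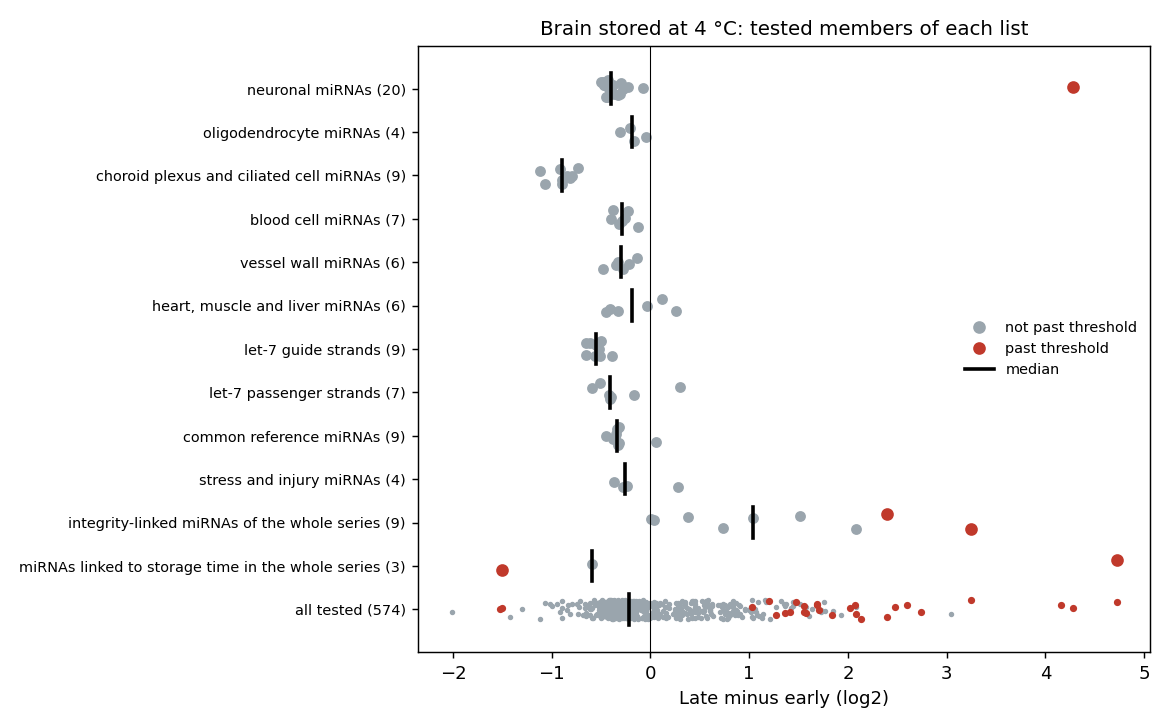
Each point is a tested member of a list, with its late minus early difference (log2) on the x axis and the list, with the number tested, on the y axis; red points passed the adjusted p of 0.05 and black bars are medians. Apart from miR-134-5p among the neuronal miRNAs, the red points lie in the 2 lists chosen on these samples and among all tested, and the median of the choroid plexus list, -0.89, is the lowest.

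Brain of another animal stored at RT was measured at the same hours, with RIN values of 8.4, 8.0, 8.7, 8.2, 7.9, 7.3, 5.5 and 3.3 from 0 to 96 h. There 105 of the 574 rose (18.3%) and 4 fell (0.697%) between the early and late arrays. These calls came from a joint fit of 12 arrays that included cold brain and pooled the spread of both series. They are therefore no separate test, and their counts are not on the same footing as those of cold brain. All 25 that rose in the cold were higher late at RT too, 16 of them past the threshold, with a median of 2.77 beside 1.84 in the cold. Of all 574, 498 had the same sign of difference at RT as in the cold. The test of the difference between the temperatures called 0 of 574 (limma interaction, 0%), with 39 at unadjusted p below 0.05 and the smallest adjusted p, 0.20, for miR-6931-5p (cold minus RT -2.74 ± 0.64). Animal and slide went with temperature and cannot be told apart from it.

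The order of the levels within the RT series was not that of the cold. MiR-804 at RT was at 1.31 and 0.21 at 0 and 1 h, 5.22 at 3 h, 6.11, 6.93 and 7.0 at 6, 12 and 24 h, and 6.45 and 5.24 at 48 and 96 h. MiR-134-5p was at 2.48 and 3.03 at 0 and 1 h, at 6.58, 6.91 and 7.25 at 3, 6 and 12 h, and at 5.82, 4.64 and 4.90 from 24 h on. MiR-344i ran in the same way, from 3.51 at 0 h over 8.04 at 12 h to 5.35 at 96 h. At RT these 3 were thus highest at 12 or 24 h and lower afterwards, whereas in the cold they were highest at 96 h. The late minus early differences of miR-134-5p and miR-344i at RT, 1.09 ± 0.83 and 1.12 ± 0.83, were smaller than in the cold by 3.18 ± 1.18 and 3.04 ± 1.18, without passing (limma interaction adjusted p = 0.552 for both).

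MiR-3473f at RT went from 3.92 at 0 h to 8.13 at 6 h, was at 7.80 at 12 h and was highest at 96 h, at 10.80. Of the 25, 9 were highest before 48 h at RT and 14 at 96 h. Already at 3 h of RT, 24 of the 25 were above both the 0 h and the 1 h array, by a median of 1.89 over their mean, beside 193 of all 574 (33.6%). The cold 3 h array was in the early group of the test that chose the 25 and is not set against this. These RT arrays lay in the same row of their slide, and the RIN value at 3 h was 8.7. MiR-3968 went from 13.13 at 0 h to 8.21 at 96 h, and its difference of -3.20 ± 0.53 passed the threshold at RT (limma adjusted p = 0.00113). MiR-652-5p, at 8.55 at 0 h, 6.41 at 12 h and 8.06 at 96 h, differed by -0.39 ± 0.51 and did not (limma adjusted p = 0.550).

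The heart of the same animal, stored at 4 °C, was compared without its 0 h array, which the authors had set aside. Between 1 and 3 h and 24 to 96 h, 8 of the 574 rose in heart (1.39%) and 1 fell (0.174%). The heart calls, too, came from a joint fit, of 11 arrays, that pooled the spread with that of cold brain. All 25 that rose in cold brain were higher late in cold heart, 8 of them past the threshold, with a median of 1.46. Of all 574, 370 had the same sign of difference in heart as in brain. The 5 largest of brain had differences in heart of 4.76 ± 0.74 for miR-804, 4.17 ± 0.78 for miR-134-5p, 4.46 ± 0.64 for miR-344i, 1.55 ± 0.46 for miR-3473f and 3.16 ± 0.34 for miR-1897-5p. Set beside its levels in brain, miR-344i in heart was at 3.48 and 4.83 at 1 and 3 h and at 7.58, 8.61 and 9.66 at 24, 48 and 96 h. MiR-3473e, miR-5128 and miR-7687-5p had differences of 0.45, 0.27 and 0.39 in heart, and did not pass there. The test of the difference between brain and heart called 0 of 574 (limma interaction, 0%), with 32 at unadjusted p below 0.05 and a smallest adjusted p of 0.623.

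**Figure D4:**
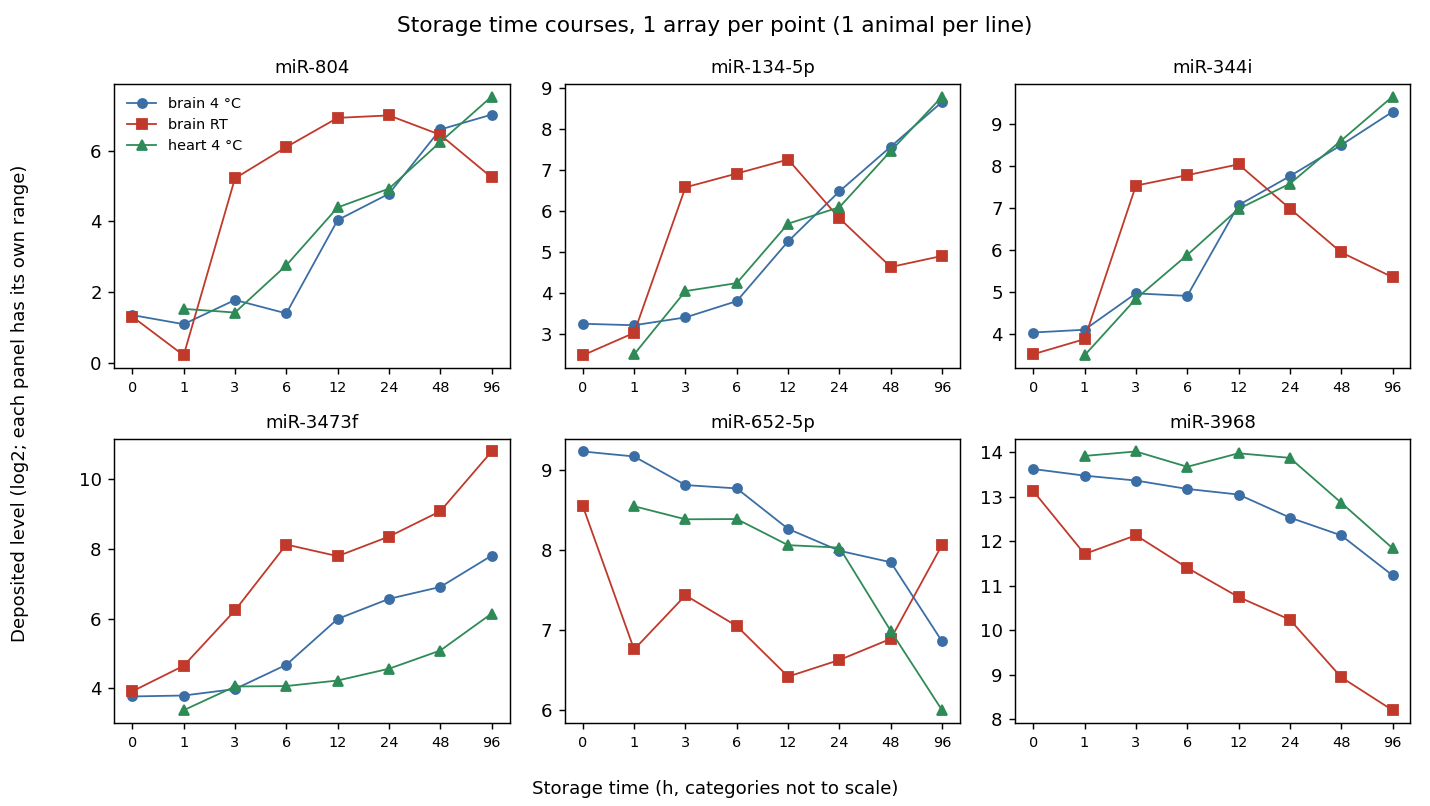
Each panel shows 1 miRNA, with storage time on the x axis (hours, in categories) and the deposited level (log2) on the y axis; each line is 1 tissue of 1 animal, with 1 array per point, for brain at 4 °C (blue circles), brain at RT (red squares) and heart at 4 °C (green triangles, without 0 h). The lines of cold brain and cold heart climb together to 96 h for miR-804, miR-134-5p and miR-344i, while the RT line is high by 3 h and falls off from 12 or 24 h.

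**Figure D5:**
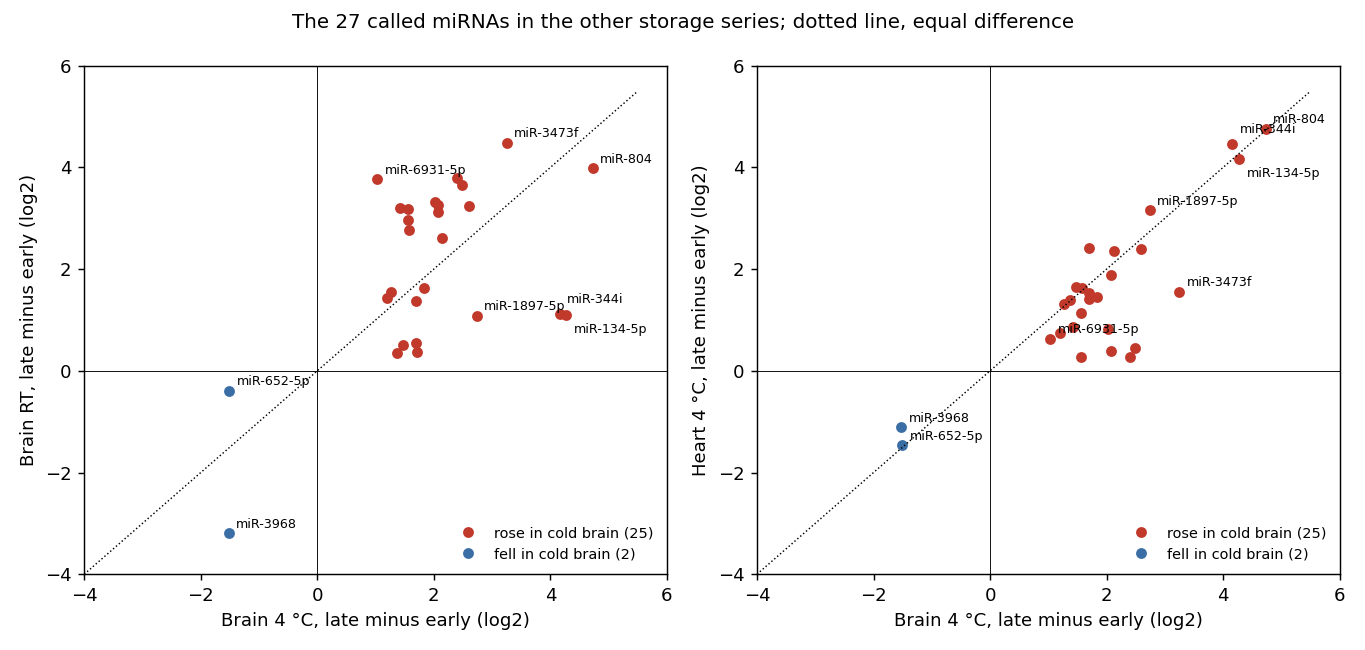
Late minus early differences (log2) of the 25 miRNAs that rose (red) and the 2 that fell (blue) in cold brain, on the x axis, are set against the same difference in brain at RT (left) and in heart at 4 °C (right), and the dotted line marks equal differences. Of the red points, 15 lie above the line at RT, and miR-134-5p and miR-344i lie furthest below it.

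A further 89 miRNAs were detected on 1 or 2 of the 8 arrays and were not tested. Of these, 49 were detected on late arrays alone, 35 of them at 96 h alone, and 23 on early arrays alone, 16 of them at 3 h alone.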

How the data were processed

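Total RNA was hybridised to Agilent SurePrint mouse miRNA arrays (Release 21), 30 spots per miRNA. The authors deposited the scanner output of Feature Extraction (version 10.10.1.1), with intensity values (total gene signal and its error) and a detection call per miRNA. They also deposited a table of log2 values made by variance stabilizing normalization over the series, which were used here as levels. Against the log2 of the scanner signal these had a slope of 0.9997 to 0.9998. This slope was taken over miRNAs of high signal only, and does not describe the lower levels of the miRNAs that rose. The methods give 14 h where the labels give 12 h, and the label was used. MiRNAs detected on at least 3 of the 8 arrays were tested with limma 3.58.1 in R 4.3.3 (lmFit and eBayes, Benjamini-Hochberg over all tested); differences between temperatures or tissues were interaction contrasts. Exact permutation tests (scipy 1.17.1) served single values. The code was tested on simulated data. Up to 12 increases and 12 decreases were named by size among miRNAs past the threshold, without overlap and detected on all 3 arrays of a group; with fewer than 5 in a direction, the 8 with the smallest p. In each list, up to 4 members of the highest mean level were to be named. Other miRNAs were named after their values were seen. Members and lists were chosen with earlier results of these data known. On arrays, precision is limited by the number of arrays. All 8 cold brain arrays shared 1 slide. Alternatives in scaling, background, filter, test and left-out arrays are given below.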

Additional observations from a re-analysis of the deposited data

How the results depend on the processing

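The 27 calls became 16 without scaling, 14 with normexp background correction of the median spot signals (an alternative chosen after seeing the data), 7 with no filter over 1881 miRNAs, 5 with Bonferroni adjustment and 83 (76 up, 7 down) with storage time as a trend over 8 arrays. The exact WMW test of the methods called 0, since 3 against 3 cannot reach its threshold. Leaving out each array in turn gave 10 to 33 calls. Without the 3 and 96 h arrays together, also chosen after seeing the data, there were 21. Percentile or quantile scaling and the detection filters gave 19 to 28, with 0 falls under percentile and quantile scaling. The median of all tested was -0.38 with 75th percentile scaling over all miRNAs against -0.21. The interaction tests called 0, and 0 under the scalings, but leaving out each array in turn gave 0 to 1 against RT (1 without the RT 3 h or the RT 24 h array) and 0 to 2 against heart (2 without the heart 24 h array). Of 721 recomputed differences of single miRNAs, 514 kept their side of the threshold, 204 lost and 3 gained it, and 0 reversed. A reversal was possible only under other scalings, background correction or the time trend. Normexp on mean spot signals was not run, as the files used here hold median signals. Every normexp result here used an offset of 50, which narrows the differences of dim miRNAs. Levels near background limit the dim miRNAs. No paired analysis was possible within cold brain because each storage time is 1 part of 1 brain and every label carries the same replicate number, 1. Against the heart of the same animal, a replicate block of storage time (brain minus heart within each of 5 shared hours, chosen after seeing the data) called 0, with 33 at unadjusted p below 0.05 and a smallest limma adjusted p of 0.243. Deviations of brain and heart parts of the same hour correlated at 0.019 to 0.333.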
